A study of Macaca mulatta with 449 samples.

Results

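The hyperpolarization-activated, cyclic nucleotide-gated (HCN) pacemaker channels were followed across the brain of the rhesus macaque through the gene count rows that carry the symbols *HCN2*, *HCN3* and *HCN4*. Of these 3 symbols, 2 matched a row each among the 30807 genes of the table, *HCN2* (ENSMMUG00000012768) and *HCN4* (ENSMMUG00000016564). *HCN3* matched no row by identifier and was not analysed here. RNA had been sequenced after ribosomal RNA removal (Ribo-zero RNA-seq) from pieces of tissue dissected by an anatomist out of each brain. The samples analysed came from 51 sub-regions, each with 1 sample from each of 8 healthy, group-housed and untreated animals. The animals were 2 young males (3.8 and 4 years), 2 young females (3.2 and 5 years), 2 mid-aged males (both 10 years) and 2 mid-aged females (9.8 and 10 years), and they are called by the numbers in the sample labels (2, 3, 4, 6, 7, 8, 10 and 11). Of the sub-regions, 31 belonged to the cerebral cortex and 20 to the other 15 region groups, so that 16 region groups were compared.

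HCN channels open when the membrane becomes more negative, in contrast to most voltage-gated channels, and pass an inward mixed sodium and potassium current called *I*h. Cyclic AMP binds to their intracellular end and makes them open more readily. In the heart they drive the rhythm of the sinoatrial node. In the brain they take part in the burst firing of thalamic relay neurons, set the resting potential and limit the summation of synaptic inputs in dendrites. *HCN4* encodes the slowest of these channels and the main form of the sinoatrial node, and *HCN2* a faster form that also responds strongly to cyclic AMP.

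The libraries held 7784678 to 31083490 counts each (median 10698602). *HCN2* had 26 to 1584 counts per sample (median 476) and was never at 0, so that counting error alone was 4.58% at the median. *HCN4* was sparser, with 0 to 615 counts (median 33, counting error 17.4%), and 5 samples had at most 3 counts. Because no exon lengths of the counting annotation were used, the levels of the 2 genes are not compared with each other. Levels are given as CPM, counts divided by library sizes that TMM had scaled, with the sub-regions of a region group summed within each animal. Of 11 marker lists of a labelled region or tissue, 10 were highest in the group of that label. The exception was *PROX1*, the marker of the dentate gyrus (DG), with a median of 37.2 CPM in the corpus callosum and 32.5 CPM in the DG, although within the hippocampus the DG exceeded CA1 in 8 of 8 animals and CA3 in 7 of 8. The hindbrain list was set against the medulla oblongata and the dopamine neuron list against the substantia nigra. The pons and the ventral tegmental area, among others, thus had no list of their own. Several samples stood apart in a list. The medulla oblongata (MO) sample of animal 6 held 302 CPM of the 5 summed neuron markers and 0.660 CPM of the hindbrain marker *SLC6A5*, against 3767 to 6917 and 2.08 to 88.5 CPM in the other 7 MO samples. The hypothalamus (HTHA) sample of animal 6 held 141 CPM of the 3 cortex markers, against 8.22 to 14.9 CPM in the other 7. The ventral tegmental area sample of animal 2 held 25.99 CPM of the dopamine neuron markers (107 to 480 CPM in the other 7), and the thalamus sample of animal 8 held 115 CPM of the cerebellum markers (9.66 to 38.3 CPM). Cortex markers reached 66.1 CPM in the accumbens sample of animal 10 (1.27 to 13.4 CPM in the others) and 40.3 CPM in the putamen sample of animal 3 (2.12 to 5.48 CPM). In the globus pallidus, animal 4 held 90.2 CPM of the hypothalamus markers and animal 6 held 276 CPM of the pituitary markers (at most 37.4 and 28.9 CPM in the others), and the sample of the medial orbital gyrus of the cortex of animal 11 held 719 CPM of the pituitary markers (at most 17.5 CPM). With any of these samples from outside the cortex left out, the 12 region group calls described below stayed the same in number. The putamen sample is an exception, since it was left out only with its whole animal. The medial orbital sample was left out only of the cortical fit, where the 17 calls described below stayed the same in number. Values that changed are given beside the results.

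*HCN2* was high in the ventral tegmental area (VTA), the thalamus (THA), the pons (PON) and the MO, and low in the corpus callosum (CC) and the pituitary (PIT). In the VTA the 8 animals lay between 72.6 and 157 CPM with a median of 94.7, and in the THA between 82.2 and 125 CPM with a median of 93.8. In the PON the level ran from 66.0 to 104 CPM (median 82.2), and in the MO from 28.9 to 147 CPM (median 77.5). The low end of the MO was the sample of animal 6, and the other 7 MO samples lay between 70.0 and 147 CPM. At the other end, CC samples held 4.58 to 10.9 CPM (median 7.66) and PIT samples 2.77 to 6.33 CPM (median 3.91). No sample of CC or PIT reached the lowest sample of any other region group, the nearest being 17.4 CPM in the olfactory bulb (OB). The mean level of *HCN2* was 24.3 times as high in the VTA as in the PIT.

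Against the mean of the other 15 region groups (edgeR quasi-likelihood test with the animal as a block, Benjamini-Hochberg adjusted FDR < 0.05 and an absolute log2FC above 1), *HCN2* was called in 6 of 16 groups. Over all genes and groups, 17.2% of such tests were called. The log2FC was 1.48 ± 0.09 (SE) in the VTA (FDR 1.43e-27), 1.46 ± 0.09 in the THA (FDR 1.25e-27), 1.21 ± 0.10 in the PON (FDR 3.41e-21) and 1.16 ± 0.10 in the MO (FDR 9.92e-20). Of all genes, 5.79% were called higher in the VTA, 6.45% in the THA, 7.18% in the PON and 8.01% in the MO. Without the MO sample of animal 6, the log2FC in the MO was 1.299 ± 0.09. *HCN2* was called lower in the CC, by a log2FC of -2.54 ± 0.14 (FDR 1.44e-32), and in the PIT, by -3.39 ± 0.16 (FDR 2.65e-40), in 8 of 8 animals each. Lower calls were made for 18% of all genes in the CC and for 20.4% in the PIT.

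Both tissues with little *HCN2* also had few neuronal transcripts. The 5 neuron markers summed to 210 to 682 CPM in the CC and to 344 to 487 CPM in the PIT, while the median over cortical samples was 10413 CPM. The 4 oligodendrocyte markers, which label the myelin-forming cells of white matter, summed to 88485 to 116357 CPM in the CC and to 10.0 to 38.9 CPM in the PIT. In tissue RNA of this kind, fewer cells of a type and less RNA per cell cannot be told apart, and the part that neuron content had in these differences was not tested.

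Between the extremes *HCN2* formed a gradual order. After the MO came the striatum (STR, 64.2 ± 8.24 CPM, mean ± SD, n = 8), the substantia nigra (SN, 60.9 ± 16.1 CPM), the globus pallidus (GP, 50.7 ± 9.86 CPM) and the cortex (47.3 ± 7.25 CPM). Then followed the HTHA (40.1 ± 9.88 CPM, or 38.5 ± 9.52 CPM without animal 6), the entorhinal and perirhinal cortex (PA, 35.7 ± 5.34 CPM), the hippocampus (HIP, 32.01 ± 3.57 CPM), the amygdala (AMY, 30.7 ± 3.34 CPM), the cerebellum (CB, 26.96 ± 5.46 CPM) and the OB (24.9 ± 5.26 CPM). Of the 15 steps from a group to the next lower, 13 did not pass the test, and the OB over the CC (log2FC 1.80 ± 0.17, FDR 2.93e-18) and the CC over the PIT (0.79 ± 0.18, FDR 4.54e-05) did. The VTA and the THA differed by 0.01 ± 0.15 on the log2 scale (FDR 0.944), and the VTA was the highest group in 3 of 8 animals. Over all 120 pairs of region groups, 100 were called for *HCN2* at FDR < 0.05, where 61.6% of the tests of all genes were called.

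*HCN4* was concentrated in the thalamus. The THA samples held 17.03 to 50.3 CPM with a median of 30.3 CPM. The low end was the sample of animal 8, which also held 115 CPM of the cerebellum markers, followed by that of animal 10 at 19.3 CPM. THA was the highest region group in 8 of 8 animals. Next came the PON with 7.61 to 18.2 CPM (median 11.7) and the OB with 2.48 to 18.5 CPM (median 9.87). The OB overlapped with the AMY (3.42 to 14 CPM) and the PA (5.86 to 12.3 CPM) over most of its range. The lowest levels were those of the STR (0.931 to 2.82 CPM, median 1.60), the HIP (1.22 to 2.42 CPM, median 1.66) and the CC (0.0946 to 1.17 CPM, median 0.284). In the CC these levels rest on 1 to 12 counts per sample. The THA mean of 30.9 ± 10.6 CPM (SD, n = 8) was 2.41 times that of the PON, 9.16 times that of the cortex and 78.7 times that of the CC.

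*HCN4* was also called in 6 of 16 region groups. Its log2FC against the mean of the other 15 was 2.79 ± 0.15 in the THA (FDR 1.29e-33), 1.44 ± 0.18 in the PON (FDR 6.33e-12) and 1.04 ± 0.18 in the OB (FDR 4.46e-07), where 10.2% of all genes were called higher. The call in the OB fell short of the fold threshold without animal 2 (log2FC 0.95), animal 7 (0.997) or animal 11 (0.89), with FDR values of at most 0.000119. The AMY stood just under the threshold at 0.91 ± 0.19 (FDR 1.57e-05) and passed it without animal 3 (1.03). Lower calls were made in the HIP (-1.61 ± 0.23, FDR 1.75e-09), the STR (-1.60 ± 0.23, FDR 2.24e-09) and the CC (-3.88 ± 0.35, FDR 3.44e-19). Of all genes, 6.06% were called lower in the HIP and 5.33% in the STR. The PIT, in which *HCN2* was lowest, had 5.84 ± 2.75 CPM of *HCN4* and a log2FC of 0.21 ± 0.20 (FDR 0.343).

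**Figure D1:**
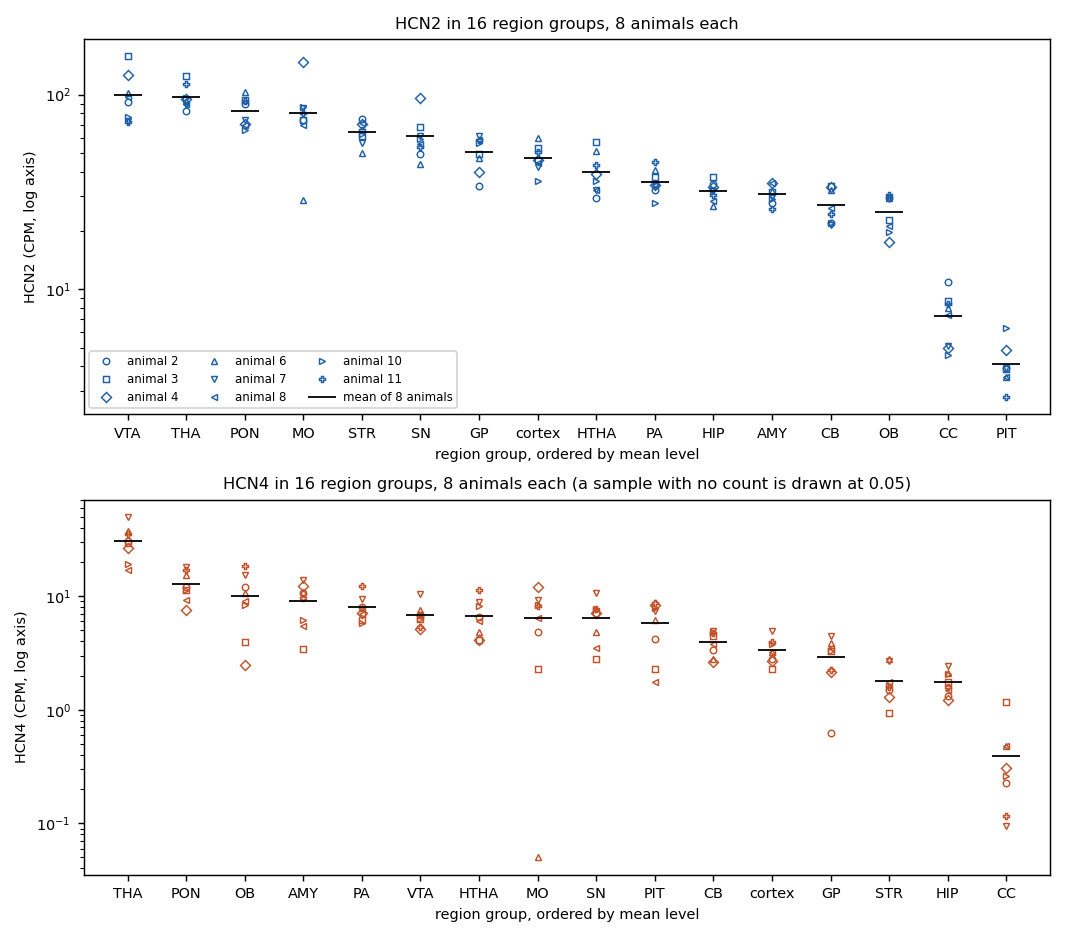
Level of *HCN2* (top) and *HCN4* (bottom) in 16 region groups, in CPM on a log axis, with 1 symbol per animal (8 animals) and a bar at their mean. *HCN2* falls gradually from 99.8 CPM in the VTA to 24.9 CPM in the OB and then drops to 7.25 CPM in the CC and 4.10 CPM in the PIT, whereas *HCN4* has its highest mean in the THA at 30.9 CPM and its lowest in the CC at 0.392 CPM; the MO sample without an *HCN4* count is drawn at 0.05 CPM.

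In the order of *HCN4* levels, 12 of the 15 steps did not pass the test. Those that did were the THA over the PON (log2FC 1.27 ± 0.26, FDR 3.00e-05, 8 of 8 animals), the GP over the STR (0.75 ± 0.30, FDR 0.0218, 7 of 8 animals; FDR 0.0538 without the GP sample of animal 6) and the HIP over the CC (2.13 ± 0.41, FDR 2.19e-06). The groups from the PON down to the PIT, between 12.8 and 5.84 CPM, could thus not be ordered step by step. For *HCN4*, 89 of 120 pairs were called at FDR < 0.05, and the THA exceeded each of the other 15 groups. The single sample with no *HCN4* count was the MO sample of animal 6, in a library of 12448529 counts, which allows a level of up to 0.248 CPM by counting error. Without that sample the MO mean was 7.37 ± 3.20 CPM (n = 7), and the log2FC of the MO moved from 0.39 ± 0.20 (FDR 0.0985) to 0.60 ± 0.18 (FDR 0.00308), still short of the fold threshold. Without animal 4 it was 0.13 ± 0.21 (FDR 0.631).

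Neighbouring structures were compared pair by pair in the same fit. The THA exceeded the adjoining HTHA for both genes in 8 of 8 animals, by a log2FC of 1.29 ± 0.15 for *HCN2* (FDR 2.13e-12) and of 2.20 ± 0.28 for *HCN4* (FDR 2.71e-11), and without the HTHA sample of animal 6 the HTHA stayed lower, by -1.37 ± 0.16 and -2.15 ± 0.29. In the midbrain, *HCN2* was higher in the VTA than in the SN in 8 of 8 animals (SN minus VTA -0.70 ± 0.15, FDR 0.000108), and the difference was as large without the VTA sample of animal 2 (-0.70 ± 0.16, FDR 0.000230). The dissected pieces differed in makeup, with a median of 188 CPM of the dopamine neuron markers in the VTA and 2162 CPM in the SN, 53294 and 23767 CPM of the oligodendrocyte markers, and 4345 and 6969 CPM of the neuron markers. The part of these differences in the result was not tested. *HCN4* did not pass the test there, with 6.86 ± 1.65 CPM in the VTA and 6.44 ± 2.57 CPM in the SN. In the basal ganglia *HCN2* was lower in the GP (GP minus STR -0.33 ± 0.15, FDR 0.0428, lower in 7 of 8 animals), and *HCN4* was higher there by 0.75 ± 0.30. The oligodendrocyte markers had a median of 56571 CPM in the GP and 6296 CPM in the STR, and the neuron markers 2308 and 4087 CPM, and their part in the 2 differences was not tested. Neither call was stable. Without the GP sample of animal 6 the FDR was 0.0510 for *HCN2* and 0.0538 for *HCN4*, and without that of animal 4 it was 0.0909 for *HCN2* (-0.29 ± 0.15). Without the animal block the FDR was 0.0523 for *HCN2* and 0.0507 for *HCN4*, and without the filter on low counts it was 0.0511 for *HCN4*. *HCN4* was lower in the MO than in the PON by a log2FC of -0.99 ± 0.28 (FDR 0.00204), and by -0.77 ± 0.24 (FDR 0.00785) without the MO sample of animal 6. For *HCN2* the same pair did not pass the test (-0.04 ± 0.15, FDR 0.846). The AMY and the PA did not pass the test for either gene.

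The balance of the channels was followed as the log2 ratio of *HCN4* to *HCN2* counts in the same libraries (0.5 added to each), a measure in which library scaling and gene length cancel once a region group is compared with the cortex of the same animal. The ratio was higher than in the cortex in 9 of 15 region groups and lower in 1, by an exact two-sided sign-flip permutation test over the 8 animals adjusted over 15 tests. In 8 groups it was higher in 8 of 8 animals, each with the smallest p that 8 animals can give (0.0078, adjusted 0.0146 in the exact test). The mean difference from the cortex was 4.18 ± 0.84 (SD, n = 8) in the PIT, 2.32 ± 0.54 in the OB, 2.11 ± 0.66 in the THA and 1.96 ± 0.70 in the AMY. It was 1.66 ± 0.36 in the PA, 1.22 ± 0.42 in the HTHA (1.285 without animal 6), 1.11 ± 0.28 in the PON and 1.06 ± 0.38 in the CB. The SN was higher by 0.52 ± 0.50 in 6 of 8 animals (exact test, adjusted p 0.0469), a call that was kept with animal 3 or animal 8 left out and lost with any of the other 6. A higher ratio can come from less *HCN2* as well as from more *HCN4*. Mean *HCN2* was 4.10 CPM in the PIT and 47.3 CPM in the cortex, and mean *HCN4* was 5.84 and 3.37 CPM. By edgeR, the CB had less *HCN2* than the cortex (log2FC -0.82 ± 0.15, FDR 8.5e-07), while *HCN4* did not pass the test (0.27 ± 0.26, FDR 0.373).

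The STR was the only region group called with a lower ratio, by -1.40 ± 0.62 in 7 of 8 animals (exact test, adjusted p 0.0260). With any of animals 2, 4, 7, 10 or 11 left out, its adjusted p rose to 0.0521 in the exact test while the difference stayed between -1.31 and -1.42. With an animal fewer, the smallest p that the exact test can give is larger. A call lost in this way, here or in the SN, thus need not mean a smaller difference. In the VTA, the group with the highest *HCN2* level, the ratio differed from that of the cortex by -0.00067 ± 0.33 (exact test, adjusted p 1). The MO difference of -0.57 ± 1.93 became 0.10 without animal 6. The HIP difference of -0.38 ± 0.46 missed the threshold (exact test, adjusted p 0.0959) and passed it without animal 6 (-0.51, exact test, adjusted p 0.0469).

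**Figure D2:**
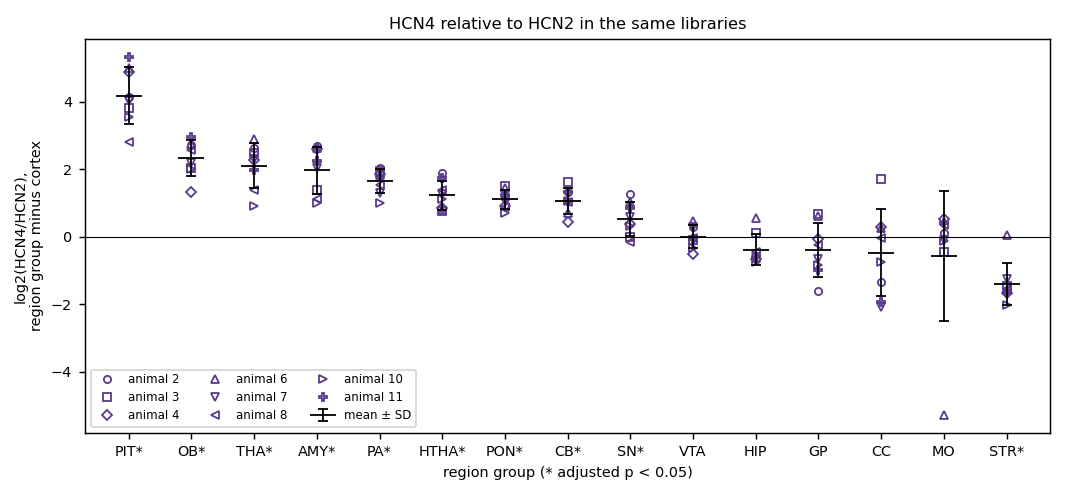
Difference in log2(*HCN4*/*HCN2*) between each of 15 region groups and the cortex of the same animal, with 1 symbol per animal (8 animals), the mean and its SD. The PIT lies highest at 4.18 and the STR lowest at -1.40, and the far MO point is animal 6, whose MO sample had no *HCN4* count.

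Within the cortex the 2 genes differed in how their levels were laid out. *HCN2* covered a narrow range over the 31 sub-regions, from 34.3 ± 5.81 CPM in the temporal polar gyrus (TPG) to 63.9 ± 13.1 CPM in the superior precentral gyrus (SPrCG). It differed among sub-regions as a whole (F test over 31 sub-regions, FDR 1.68e-18), as did 75% of the genes tested. No sub-region passed FDR < 0.05 with an absolute log2FC above 0.5, by edgeR or by DESeq2, although 9 passed the FDR alone and 15 had an unadjusted p under 0.05. No share of all genes is given for counts without the fold threshold, so they cannot be set against a background. The 3 highest sub-regions of *HCN2* were the superior and inferior precentral gyri, which hold the primary motor cortex, and the inferior postcentral gyrus of the somatosensory cortex. Their log2FC against the mean of the other 30 were 0.49 ± 0.08 (FDR 2.75e-07), 0.45 ± 0.08 (FDR 3.92e-06) and 0.39 ± 0.08 (FDR 0.000104). At the low end were the TPG (-0.42 ± 0.09, FDR 4.21e-05) and the ventromedial prefrontal cortex (vmPFC, -0.35 ± 0.09, FDR 0.000800).

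*HCN4* spanned a wider range, from 1.37 ± 0.743 CPM in the annectant gyri (ATG) to 6.10 ± 1.37 CPM in the TPG, and its F test gave an FDR of 2.61e-43. It was called in 17 of 31 sub-regions, where 5.42% of such tests over all genes were called, 2.92% as higher and 2.5% as lower. The 8 higher ones comprised 6 of the frontal lobe, the TPG and the anterior cingular gyrus (ACG). The TPG exceeded the mean of the others by a log2FC of 1.12 ± 0.14 (FDR 1.33e-12), the anterior superior frontal gyrus by 1.02 ± 0.14 (FDR 3.89e-10), the insula by 1.01 ± 0.14 (FDR 1.75e-10) and the vmPFC by 0.96 ± 0.14 (FDR 3.00e-09). The 9 lower ones comprised the 3 occipital sub-regions, 3 parietal, 2 limbic and 1 temporal, by the lobes of the study. Those filed as parietal were the ATG, the cuneus gyrus and the intraparietal sulcus. Those filed as limbic were the lingual and fusiform gyri, and the temporal one was the occipito-temporal gyrus. Lowest were the ATG (-1.15 ± 0.19, FDR 3.82e-07), the inferior occipital gyrus (-1.08 ± 0.19, FDR 6.99e-07) and the lingual gyrus (LG, -1.002 ± 0.19, FDR 6.51e-06). The TPG, highest of the cortex for *HCN4*, was thus the lowest for *HCN2*. The precentral gyri, highest for *HCN2*, had 3.22 ± 1.04 and 3.09 ± 1.59 CPM of *HCN4* and log2FC of 0.14 ± 0.16 and 0.05 ± 0.16.

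**Figure D3:**
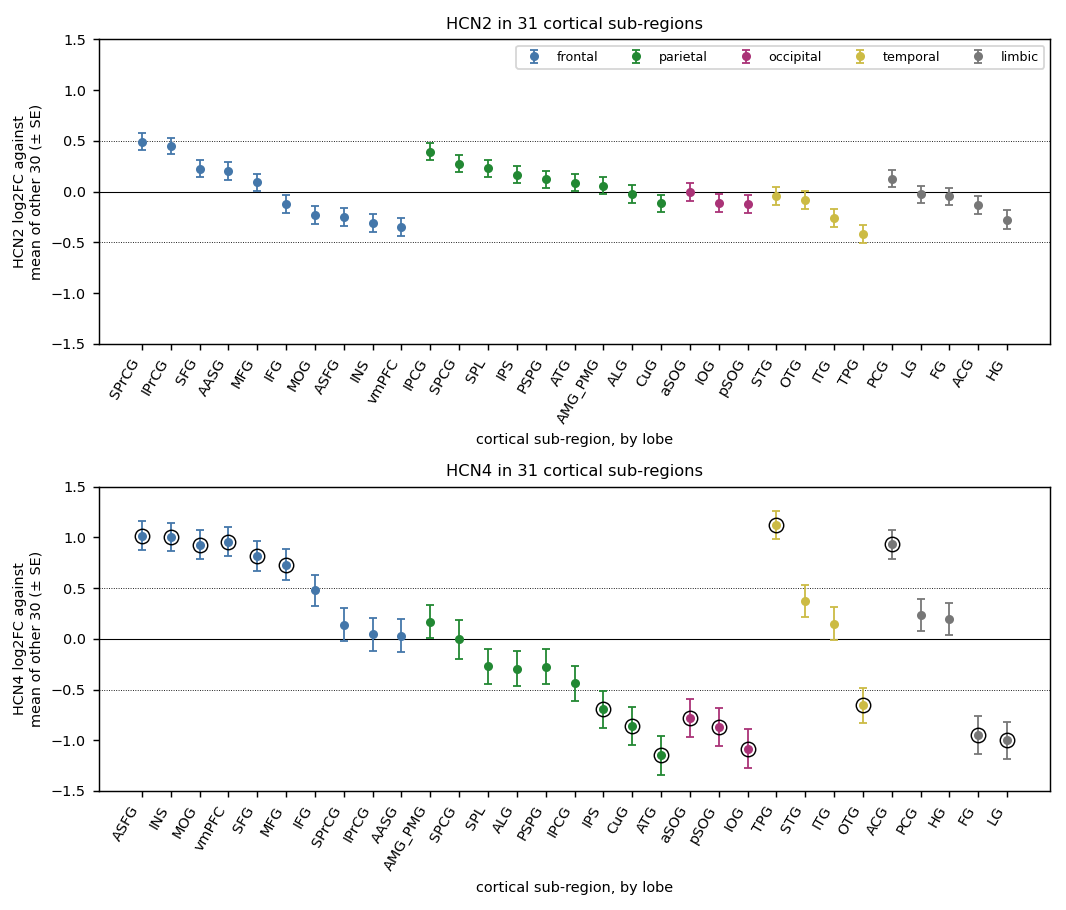
log2FC of *HCN2* (top) and *HCN4* (bottom) in each of 31 cortical sub-regions against the mean of the other 30, with SE bars, coloured by lobe; dotted lines mark the fold threshold of 0.5 and black rings the called sub-regions. *HCN2* has none called, and *HCN4* has 8 higher, mostly frontal, and 9 lower, among them all 3 occipital ones.

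Summed over lobes, *HCN4* was called higher in the frontal lobe and lower in the occipital lobe. Frontal levels per animal were 3.18 to 6.68 CPM (median 4.64) and occipital levels 1.11 to 2.75 CPM (median 1.51), and the ranges did not overlap. Against the mean of the other 4 lobes the frontal log2FC was 0.89 ± 0.07 (FDR 2.99e-13, 8 of 8 animals), and the occipital one -1.02 ± 0.09 (FDR 4.04e-12, lower in 8 of 8 animals). *HCN4* was also called higher in the temporal lobe (3.62 ± 0.798 CPM, log2FC 0.46 ± 0.07, FDR 1.10e-05) and lower in the parietal lobe (2.26 ± 0.664 CPM, -0.42 ± 0.07, FDR 0.000153). *HCN2* moved less, with the parietal lobe at 0.21 ± 0.05 (50.2 ± 10.0 CPM, FDR 0.00962) and the temporal lobe at -0.19 ± 0.06 (40.1 ± 6.05 CPM, FDR 0.0131). These were 6 calls in 10 tests, where 30.3% of the lobe tests over all genes were called. By lobe and direction, the share of all genes called was 23% for higher in the frontal lobe, 26.4% for lower in the occipital lobe, 13.7% and 12% for higher and lower in the temporal lobe, and 4.68% and 4.96% for higher and lower in the parietal lobe. Without the animal block 2 calls were left, the frontal and the occipital one of *HCN4*. The parietal call of *HCN2* was lost without animal 10 (FDR 0.0543), and a lower one in the limbic lobe appeared without animal 4 (-0.14 ± 0.05, FDR 0.0418).

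Animals differed in their cortical levels as a whole. Averaged over the 31 sub-regions, *HCN2* ran from 35.3 CPM in animal 10 to 58.9 CPM in animal 6. For *HCN4* the lowest was animal 3 with 2.23 CPM and the highest animal 7 with 4.80 CPM. The animal with the most *HCN2* in the cortex was thus not that with the most *HCN4*.

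Within the hippocampus, striatum and cerebellum neither gene was called between sub-regions at an absolute log2FC above 1, by edgeR or DESeq2, in 14 tests (3.49% of such tests over all genes were called). Smaller differences in *HCN2* passed the FDR alone in 4 of 7 tests, and 5 had an unadjusted p under 0.05. The share of 3.49% includes the fold threshold and does not apply to these counts, for which no share of all genes is given. In the hippocampus the DG held 17.3 to 34.6 CPM of *HCN2* (median 23.5), CA1 26.1 to 54.2 CPM (median 32.6) and CA3 26.7 to 41.6 CPM (median 35.2). The granule cell field of the DG was below both fields of pyramidal cells, in 7 of 8 animals for CA1 and 8 of 8 for CA3, with a log2FC of 0.49 ± 0.14 for CA1 minus DG (FDR 0.0132) and 0.55 ± 0.14 for CA3 minus DG (FDR 0.00577). Without animal 3, whose CA1 sample was the highest of its group, CA1 minus DG fell to 0.32 ± 0.11 (FDR 0.0402). In the striatum the accumbens nucleus (ACb) held 38.8 to 66.8 CPM (median 44.9), less than the caudate nucleus (CN, 49.2 to 86.4 CPM, median 74.2) and the putamen (PUT, 61.8 to 89.8 CPM, median 70.3). The log2FC was -0.58 ± 0.10 for ACb minus CN (FDR 0.000271, lower in 8 of 8 animals) and -0.63 ± 0.10 for ACb minus PUT (FDR 3.79e-05, lower in 7 of 8). The exception was animal 4, whose ACb sample was the highest of its group.

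The cerebellar cortex (CBC) had more *HCN2* than the vermis (CBV) in 8 of 8 animals, 29.2 ± 8.87 against 22.1 ± 4.50 CPM, but the log2FC of 0.37 ± 0.13 did not pass after adjustment over all genes (FDR 0.275). Without animal 4 it was smaller, 0.24 ± 0.06, with an FDR of 0.0398. For *HCN4*, no pair passed the FDR, and 1 of 7 had an unadjusted p under 0.05. CA3 held 2.09 ± 0.817 CPM and the DG 1.29 ± 0.616 CPM (log2FC 0.71 ± 0.30, FDR 0.0718). At a median of 20 counts per hippocampal and 17 per striatal sample, the SE of these differences was 0.29 to 0.30 on the log2 scale, so that changes of the size seen for *HCN2* were not detectable for *HCN4*.

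**Figure D4:**
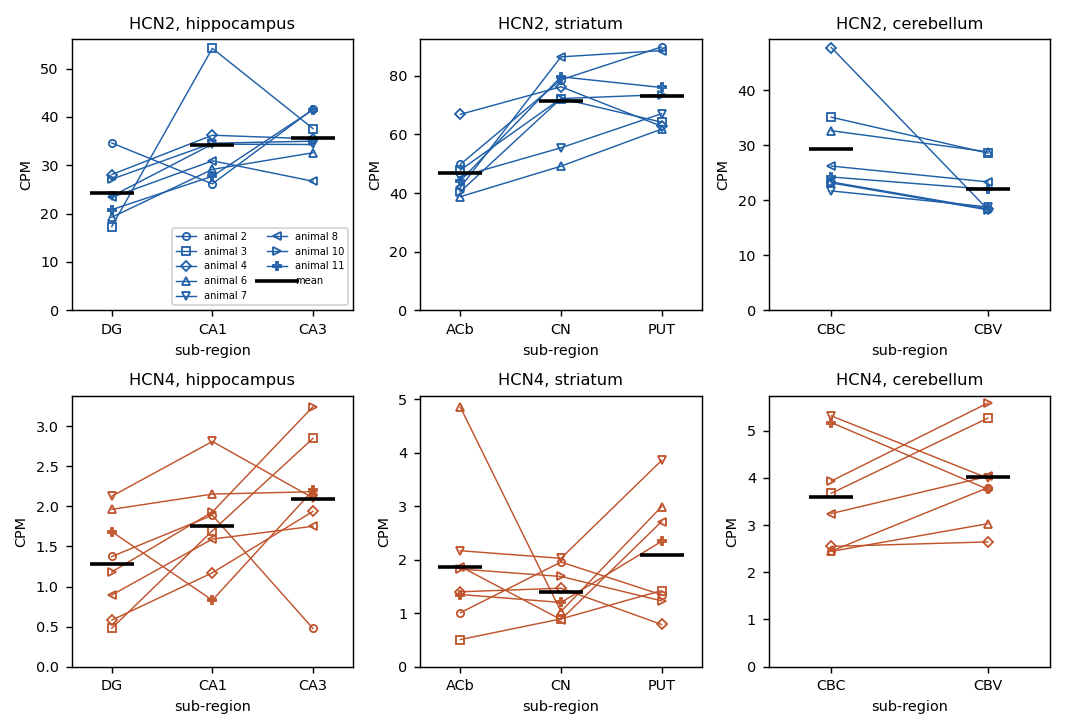
*HCN2* (top) and *HCN4* (bottom) in the sub-regions of the hippocampus, striatum and cerebellum, in CPM, with a line per animal (8 animals) and a bar at the mean. The mean of *HCN2* is lower in the DG (24.3 CPM) than in CA1 (34.2 CPM) and CA3 (35.6 CPM), and lower in the ACb (46.9 CPM) than in the CN (71.2 CPM) and PUT (73.0 CPM), while the lines of *HCN4* cross.

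Neither gene was called between mid-aged and young animals or between females and males (edgeR, FDR < 0.1 and an absolute log2FC above 1, within each region group), in 16 region groups for *HCN2* and in 15 for *HCN4*, which was too low to be tested in the CC. DESeq2 called none either. Over all genes and groups, 0.0164% of the age tests and 0.105% of the sex tests were called. For *HCN2* and age, 3 groups had an unadjusted p under 0.05, the CC, the cortex and the PON, and in each of them the 4 mid-aged animals lay above the 4 young ones. The largest difference was that of the CC, with 8.98 ± 1.28 CPM in the mid-aged and 5.51 ± 1.25 CPM in the young animals (log2FC 0.75 ± 0.20, FDR 0.849). In the PON the means were 95.2 and 70.3 CPM (log2FC 0.44 ± 0.12, FDR 0.9998), and in the cortex 52.4 and 42.1 CPM (0.32 ± 0.12, FDR 0.855). None of the 3 passed after adjustment, and the share of all genes with such an unadjusted p is not given here. For *HCN4* and age the largest difference was in the MO, with 3.84 ± 3.55 CPM in the mid-aged and 9.06 ± 2.36 CPM in the young animals (-1.24 ± 0.87, FDR 0.593). The mid-aged group held the MO sample of animal 6, without which the difference was -0.81 ± 0.36 (FDR 0.695), and without animal 11 it was -2.39 ± 1.05 (FDR 0.376). The MO pieces also differed in makeup by age. The 5 interneuron markers summed to 18.9 to 269 CPM in the mid-aged and to 483 to 634 CPM in the young animals. The neuron markers overlapped between the ages. The part of makeup in the *HCN4* difference was not tested.

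By sex, no region group had an unadjusted p under 0.05 for *HCN2*, and the largest log2FC, female minus male, was -0.30 ± 0.20 in the CC (FDR 0.9998). *HCN4* had its largest sex difference in the PIT, with 7.77 ± 1.12 CPM in females and 3.92 ± 2.56 CPM in males (1.04 ± 0.43, FDR 0.226, with overlapping groups). It was the single sex test of *HCN4* with an unadjusted p under 0.05. Animal 7, a young male, held 7.41 CPM, within the 6.20 to 8.75 CPM of the females, while the other males held at most 4.23 CPM. Leaving it out thus removed the overlap, and the log2FC was then 1.63 ± 0.34 with an FDR of 0.00912, past the threshold. Since it was the animal that went the other way, this fit is not read as a sex difference. The PIT samples were uneven in makeup. The 2 pituitary markers summed to 30507 to 348817 CPM in females and to 28909 to 84220 CPM in males. The part of this spread in the sex difference was not tested.

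**Figure D5:**
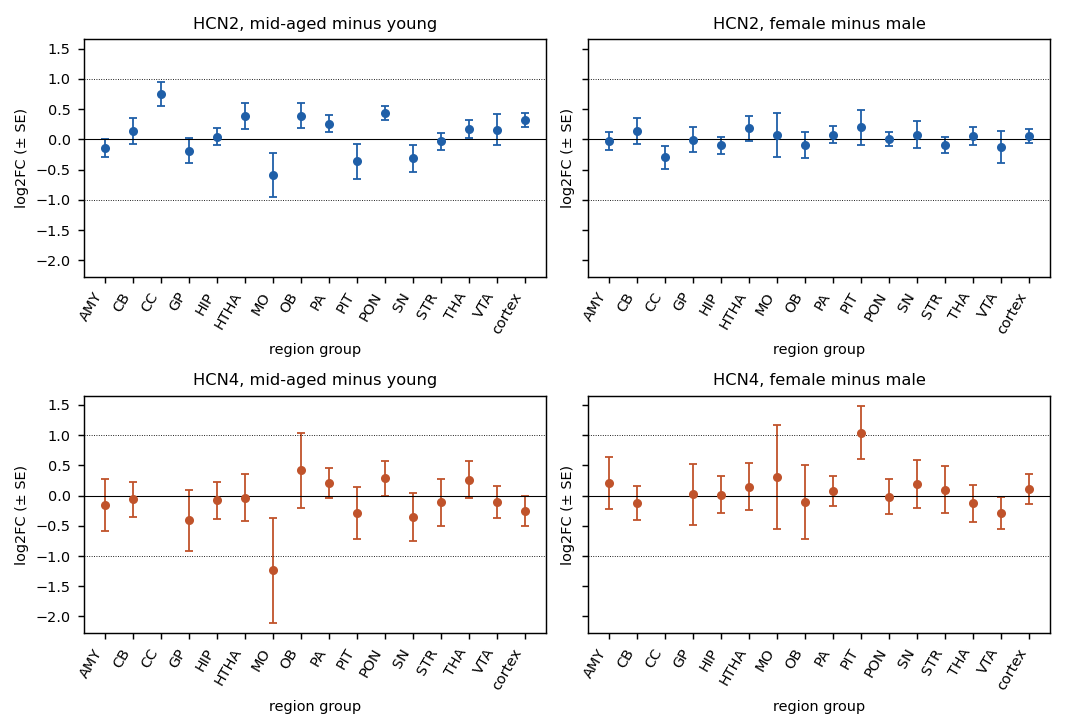
log2FC with SE of *HCN2* (top) and *HCN4* (bottom) for mid-aged minus young animals (left) and female minus male animals (right) in each region group, 4 animals against 4, with dotted lines at the fold threshold of 1. No difference passed the test, and the values beyond the dotted lines are *HCN4* by age in the MO (-1.24) and by sex in the PIT (1.04).

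Over the mean levels of the 51 sub-regions, the 2 channel genes were weakly related to each other, with a Pearson correlation of log2(CPM + 1) of 0.18. It was -0.34 over the 31 cortical sub-regions and 0.34 over the 20 others, and over the means of the 16 region groups it was 0.43. These are descriptions, since the sub-regions share animals and libraries. Among 12122 genes with a symbol and a mean of at least 1 CPM, the pattern most like that of *HCN2* was that of *SLC7A10*, a neutral amino acid transporter (r 0.91). It was followed by *MDH2*, the mitochondrial malate dehydrogenase (0.91), by *NEFM* and *NEFL*, the medium and light neurofilament chains of large axons (0.91 and 0.89), and by *PARP6*, a member of the ADP-ribosyltransferase family (0.89). Of these 5 genes, 4 had their highest level in the PON. For *HCN4* no gene came as close. Its 5 most similar genes were *ANO10*, an anoctamin membrane protein (0.74), *MINAR1* (0.74), *ARHGEF28* (0.72), the cardiac actin *ACTC1* (0.71) and the membrane-bound matrix metalloproteinase *MMP15* (0.71). *ARHGEF28* and *MMP15* had their highest level in the THA.

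HCN partner proteins, of which 8 of 12 had a row, were counted in the region groups in which a channel gene had its largest called rise or fall, the VTA and PIT for *HCN2* and the THA and CC for *HCN4*. *PEX5L* (TRIP8b), the auxiliary subunit that governs HCN traffic and cyclic AMP response, was called higher in the VTA (139 ± 39.8 CPM, log2FC 1.02 ± 0.17) and the CC (322 ± 62.5 CPM, 2.42 ± 0.14) and lower in the PIT (7.31 ± 2.63 CPM, -3.43 ± 0.26), and its log2FC in the THA was 0.49 ± 0.17. Its level was thus high in the CC, where both channel genes were low. Beside the shares given above, 13.6% of all genes were called higher in the CC and 17.8% in the PIT, and 5.54% were called lower in the THA and 3.43% in the VTA. *IRAG1* was called higher in the THA (320 ± 41.3 CPM, 2.54 ± 0.07) and lower in the CC (-1.05 ± 0.11), whereas its relative *IRAG2* was called in none of the 4 groups (log2FC -0.86 to 0.44); both encode proteins known to bind and modulate HCN4. The scaffold *APBA2* was called lower in the CC (-1.91 ± 0.10) and the PIT (-3.91 ± 0.11), *TAMALIN* in the CC, PIT and THA (-1.02 to -2.57), *MAGI2* in the PIT (-1.13 ± 0.06) and the ubiquitin ligase *NEDD4L* in the VTA (-1.01 ± 0.15). The actin crosslinker *FLNA* was called in none of the 4 (log2FC -0.79 to 0.16).

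Other genes of the pathway were counted in the same way, beside the medians over all genes. Of the 9 adenylyl cyclases, which make cyclic AMP, 1 was called in the THA, *ADCY8*, with 94.1 ± 14.3 CPM and a log2FC of 2.02 ± 0.07. In the CC 4 were called lower (*ADCY1*, *ADCY3*, *ADCY8* and *ADCY9*, -1.35 to -1.52), in the PIT 2 (*ADCY1*, -3.72 ± 0.31, and *ADCY8*, -8.70 ± 0.22) and in the VTA none. Of 7 other rhythm and leak channels with a row, 6 were called lower in the CC. In the PIT 6 were called lower, but the T-type calcium channel gene *CACNA1H* was called higher (394 ± 155 CPM, 3.51 ± 0.13). In the THA the T-type channel gene *CACNA1G*, which carries the low-threshold calcium current of relay neurons, was called higher (348 ± 60.5 CPM, 3.47 ± 0.12), as was the M-current gene *KCNQ3* (57.2 ± 17.3 CPM, 1.78 ± 0.12), and *CACNA1H* lower (-2.43 ± 0.24). None of the 7 was called in the VTA. The median log2FC of these 7 channels was -2.87 in the CC, -1.97 in the PIT, 0.43 in the THA and -0.39 in the VTA, that of the cyclases -0.98, -0.21, 0.17 and -0.02, and that of the partner proteins -0.41, -0.76, -0.35 and -0.23, while the median over all genes tested was -0.01, 0.04, -0.06 and -0.01 in the same groups. Of the cyclic nucleotide-gated relatives, 4 of 6 had a row and 2 could be tested, and of these *CNGB3* was called higher in the PIT (5.11 ± 6.99 CPM, 3.43 ± 0.22).

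In RefSeq's annotation of a later assembly of this species (T2T-MMU8v2.0), *HCN2* lies between *BSG* and *POLRMT* and its span overlaps *PALM* and a long non-coding RNA, and *HCN4* lies between *NEO1* and *REC114* and overlaps a long non-coding RNA. Over the 51 sub-regions, *HCN2* correlated with *BSG* at 0.41 and with *PALM* at 0.30, and *HCN4* with *NEO1* at 0.12 and with *REC114* at -0.15. How reads in overlaps were assigned is not given in the sources used here, so the share of such reads in the counts is unknown.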

How the data were processed

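By the study's methods, the authors trimmed samples of poor read quality with Trim Galore 0.4.4, aligned the reads to Mmul_8.0.1 by HISAT2 2.0.5 and counted them per Ensembl gene with HTSeq 0.6.1. The library kit was directional, but whether HTSeq used strand, and how it treated overlapping genes, is not given in the sources used here. The deposited values are raw counts per gene, and no sample columns of the table were left unmapped. The 8 midbrain samples and the 33 ATAC-seq samples were not analysed here.

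Counts were tested in R 4.3.3 with the quasi-likelihood F test of edgeR 4.0.16 (limma 3.58.1) after TMM scaling and filterByExpr, with Benjamini-Hochberg adjustment over all genes tested, 16829 for the region groups. For the SE, the size of a log2FC was divided by the square root of F. Counts of region groups and lobes were summed within each animal. The animal, which the labels give for each sample, paired the samples and was a block in every test between regions, as in the study's own models; age and sex were each tested with the other as a covariate. Pairs of region groups and lobes were called at FDR < 0.05, region groups and sub-region pairs also at an absolute log2FC above 1, cortical sub-regions above 0.5, and age and sex at FDR < 0.1 and above 1. Ratios were tested with Python 3.11.15 and scipy 1.17.1 by exact sign-flip tests; with *HCN3* unmatched, 15 tests were made. The tests were checked on simulated data.

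The genes named are the channel genes, the 5 genes with the most similar pattern for each, the adjacent genes, every matched partner protein and the called members of the other lists. Symbols came from a name table, which matched 17572 genes; unmatched list members were counted as such. The study's region lists and lobes were kept, the insula among the frontal sub-regions. The members and the lists were chosen with earlier results of these data known. Alternatives were DESeq2 1.42.0, its size factors in edgeR, no low-count filter, no replicate block, no covariate, 5 added before the ratio, each animal left out and the HTHA sample of animal 6 left out. Leaving out the MO sample of animal 6, or 1 of 6 other samples that stood apart in a marker list, was added after seeing the data. So were the pairs of region groups without the HTHA sample or any of these samples but the cortical one. Counting intervals and floors cover counting error only. The mixed-model test of the study was not repeated.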

Additional observations from a re-analysis of the deposited data

Results flagged for a closer look

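In 11 of 102 groups of 8 samples (2 genes in 51 sub-regions), a single sample stood farther from the rest than Dixon's 95% critical value. Each was the highest of its group. A chance rate of about 1 in 20 groups holds for independent, normally distributed values. Levels in CPM, in groups that share their animals, need not meet this, so the count is not read as an excess. For *HCN2*, 5 of them came from animal 6, all in the cortex: the cuneus gyrus (65.3 CPM), the inferior frontal gyrus (73.1 CPM), the inferior occipital gyrus (69.2 CPM), the superior parietal lobule (98.3 CPM) and the posterior superior occipital gyrus (65.6 CPM). Animal 6 also had the highest cortical mean of *HCN2*. The others for *HCN2* were animal 4 in the ACG (83.1 CPM) and the ACb (66.8 CPM) and animal 3 in CA1 (54.2 CPM). For *HCN4* they were animal 6 in the ACb (4.85 CPM), animal 7 in the posterior superior occipital gyrus (3.18 CPM) and animal 3 in the CC (1.16 CPM, from 12 counts).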

How the results depend on the processing

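With DESeq2, or with its size factors in edgeR, each of the 87 single values compared kept its direction and its side of the threshold, and the 12 region group, 6 lobe and 17 cortical calls were the same in number. The animals differ in overall level, and without the replicate block the lobe calls fell from 6 to 2, with 7 single calls lost in all. With each animal left out in turn, there were 11 to 13 region group calls, 5 to 7 lobe calls, 8 to 10 ratio calls, 0 age calls, 0 sub-region calls and 0 to 1 sex calls, the last being *HCN4* in the PIT without animal 7. With single samples from outside the cortex that stood apart in a marker list left out, there were 12 region group calls each time. There were then 186 to 190 calls over pairs of region groups, 189 with all samples, and the lost calls among the 5 adjoining pairs were those of the GP against the STR. Values that changed sign had not passed the test under either setting. With animals left out in turn, CA1 minus CA3 of *HCN2* ran from -0.171 to 0.0098 on the log2 scale, CN minus PUT of *HCN2* from -0.089 to 0.020 and ACb minus CN of *HCN4* from -0.028 to 0.508. The ratio difference from the cortex ran from -0.726 to 0.10 in the MO and from -0.067 to 0.072 in the VTA, and with 5 added it was 0.62 in the CC and 0.081 in the VTA. MO minus PON of *HCN2* was -0.070 without the HTHA sample of animal 6 and 0.097 without the MO sample of animal 6. Over the 16 region group means in place of 51 sub-regions, 3 of the 5 genes most like *HCN2* and 1 of the 5 most like *HCN4* were again among the first 5. Depth limits *HCN4* most, with a median of 33 counts per sample and 3.5 in the CC.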
